A study of Mus musculus with 10 samples.

Results

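Cytosolic ribosomal protein genes were followed in bulk RNA-seq of mouse tumors. The tumors grew from the melanoma line B16-F10. Members were the gene rows whose symbol was Rpl or Rps followed by a digit, Rplp0, Rplp1, Rplp2 or Rpsa, leaving out the Rps6k kinases and symbols that end in -ps and a number. This rule found 86 of 17737 gene rows, with 52 large subunit and 34 small subunit symbols, and used no measured value. One of them, Rps19bp1, encodes a protein that binds the ribosomal protein S19 and is not a ribosomal protein itself, and Rps27rt is a retrotransposed copy of Rps27. The annotation holds 98 symbols that meet the rule, and the other 12 have no gene row in the counts, so they could not be analysed. Of the 86 genes, 85 had enough counts to be tested, and Rpl10l did not.

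All tumors came from 400000 B16-F10 cells engrafted under the skin of the right flank of C57BL/6 mice and were taken on day 11. In 5 of them (WT-2 to WT-6) the implanted line overexpressed wild-type IL-18, and in the other 5 (D69A-1 to D69A-5) it overexpressed IL-18 with alanine in place of aspartate at position 69. Both groups therefore carry an overexpressed IL-18, and no tumor without it was analysed here. The labels give no mouse age or sex, and do not say whether a line was 1 clone or a pool, what promoter drove IL-18, or whether 2 tumors could share a mouse. The tests therefore measure only the scatter among these 10 samples, part of which may be technical. If each line was established once, the IL-18 form and the line cannot be told apart.

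The ribosome of the cytosol joins a large subunit, which forms peptide bonds, to a small subunit, which reads the messenger RNA, and each is built from ribosomal RNA and many small basic proteins. Nearly every ribosomal protein is needed in 1 copy per ribosome, while the acidic P1 and P2 proteins sit as pairs on P0 in a stalk that recruits translation factors. Their messenger RNAs begin at a C within a run of pyrimidines, the 5′ TOP element, through which the kinase mTOR and the RNA-binding protein LARP1 regulate their translation. The mRNAs are among the most abundant in dividing cells, and a few members have paralogs with tissue-restricted expression.

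The starts of some members show this element and those of others, as annotated, do not. Each sequence below runs from 15 bases before the annotated start to 15 bases from the start on, on the gene's strand, from the RefSeq promoter table for GRCm38.p6. Capitals mark a C followed by at least 4 bases that are each C or T. The first 4 are shown because the run begins at the annotated start.

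Rps6 (chr4:86857353-86857382, minus strand): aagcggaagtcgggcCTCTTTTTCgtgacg

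Rpl15 (chr14:18270972-18271001, minus strand): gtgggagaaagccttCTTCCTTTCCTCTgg

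Rpl38 (chr11:114668565-114668594, plus strand): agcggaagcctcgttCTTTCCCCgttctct

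Rplp2 (chr7:141447636-141447665, plus strand): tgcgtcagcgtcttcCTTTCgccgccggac

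The next 3 are shown because these genes recur in the results. In Rpl39 the run begins before the annotated start and ends on it, and in Rpl39l it lies wholly before the start. In Rplp0 none begins within 10 bases of the start.

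Rpl39 (chrX:37085208-37085237, minus strand): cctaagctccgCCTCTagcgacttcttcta

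Rpl39l (chr16:10170213-10170242, plus strand): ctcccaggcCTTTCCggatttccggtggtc

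Rplp0 (chr5:115559452-115559481, plus strand): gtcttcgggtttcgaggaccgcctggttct

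A promoter window was found for 66 of the 86 members. In 14 of them (21.2%) the run began at an annotated start, against 813 of 27025 genes with a window (3.01%). The search covered the gene's own strand only. When the run could begin within 10 bases of the start, 60.6% of members and 34.4% of all genes held it. An annotated start can differ from the base where transcription begins, so a missing match says only that these letters are not at that position.

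Most ribosomal protein genes stood at similar levels in the tumors of both groups. Levels below are CPM, counts scaled to a common library size after TMM (edgeR's correction for differences in library composition). The sum of the 86 genes was taken as a share of all gene counts. It was 4.61, 4.13, 4.70, 4.35 and 4.24% in WT-2 to WT-6 and 4.29, 3.78, 4.61, 4.34 and 4.21% in D69A-1 to D69A-5. The means were 4.41 ± 0.241% in WT and 4.25 ± 0.301% in D69A tumors (SD, n = 5 each), the ranges overlapped, and D69A-2 was the lowest of the 10. The ratio of large subunit to small subunit counts was 1.35 ± 0.0173 in WT and 1.38 ± 0.0214 in D69A tumors. In bulk tumor RNA, fewer cells of a type and less RNA per cell cannot be told apart.

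**Figure D1:**
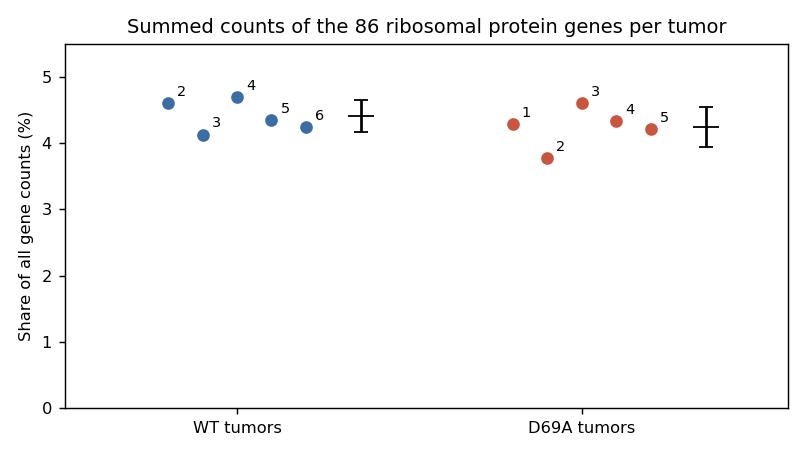
Each point is the summed share of all gene counts (%) held by the 86 ribosomal protein genes in 1 tumor, labelled with its number, and the bars give the mean ± SD (n = 5). The WT tumors lie between 4.13 and 4.70% and the D69A tumors between 3.78 and 4.61%.

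Gene by gene, 1 member was higher in D69A tumors (Rpl8) and 4 were lower (Rpl39, Rps29, Rplp1 and Rpl39l), and 80 did not pass the threshold. A gene was called when its p from the quasi-likelihood test of edgeR, after Benjamini-Hochberg correction across 13798 genes, was under 0.05. The 5 members called are 5.88% of those tested, against 43.5% of all genes tested in the same comparison, where 18.8% were higher and 24.7% lower. At an unadjusted p under 0.05 there were 3 members higher and 6 lower. The median log2 fold change of the members (D69A against WT) was -0.046, with 29 fitted above 0 and 56 below, beside 0.002 over all genes tested. The large subunit genes had a median of -0.055 (51 tested, 1 higher and 3 lower) and the small subunit genes one of -0.029 (34 tested, 0 higher and 1 lower by this test).

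These counts depend on single tumors and on the scaling. Without D69A-2 the members' median was 0.009. With WT-3, WT-4 and D69A-1 left out, the 3 tumors with the highest muscle marker sums, 1 member was higher, Rpl3 in place of Rpl8, and 0 were lower by edgeR's test, with 5 at an unadjusted p under 0.05. With library size alone as the scaling, 0 members were higher and 9 lower. With upper quartile scaling the counts were 0 and 6, and with RLE scaling 2 and 4. The sign of the median thus changed with 1 tumor, and the split of the calls changed with the scaling.

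The differences of the abundant members were small, whichever way they went. Of the 85 tested, 83 had a mean of at least 10 CPM, and their log2 fold changes lay between -0.41 and 0.21 with a median SE of 0.09. None of these 83 had a fitted change past 1.5-fold, against 11.7% of the 9814 genes tested at that level. For 76 of the 83 the 95% interval of the fold change lay within 1.5-fold. The other 7 were Rpl17, Rpl30, Rpl38, Rpl39, Rps12, Rps27 and Rps29, whose intervals reached further.

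The tumors differ in the cells they hold, and bulk RNA does not show from which of these cells the members' reads came. The summed CPM of 12 leukocyte markers ranged from 418 to 1073 in WT tumors and from 118 to 303 in D69A tumors. For 6 fibroblast markers the ranges were 1842 to 4623 and 267 to 1057. For 8 melanocyte markers they were 16560 to 21320 and 25080 to 29880, so the labelled melanoma identity is present in every tumor. The 8 skeletal muscle markers summed to 1469 in WT-4, 955 in WT-3 and 510 in D69A-1, and to at most 105 in the others. None of the markers in these lists was at 0 in all tumors. The part of these cells in the results below was not tested.

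For the ribosomal stalk, the fitted changes of the base and the arms had opposite signs, and only that of Rplp1 passed the threshold. Rplp1 (chromosome 9, 61913284 to 61914542 in mm10) encodes P1. It stood at 842, 777, 895, 810 and 781 CPM in the WT tumors and at 703, 636, 785, 713 and 748 CPM in the D69A tumors. Only D69A-3 reached into the WT range. The log2 fold change was -0.20 with an SE of 0.07 (edgeR, adjusted p = 0.0351). This call is fragile, being lost when any 1 of the D69A tumors or of WT-2, WT-3, WT-4 and WT-5 was left out. The adjusted p then lay between 0.0523 and 0.0982.

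Rplp2 (chromosome 7, 141447370 to 141451585), which encodes P2, did not pass the threshold. Its levels were 447, 329, 366, 343 and 342 CPM in the WT tumors and 345, 275, 360, 345 and 354 CPM in D69A tumors. The groups overlap, with WT-2 standing high and D69A-2 low. The log2 fold change was -0.12 with an SE of 0.10 (edgeR, adjusted p = 0.337). Rplp0 (chromosome 5, 115559467 to 115563727) encodes P0, the base of the stalk, and had the highest mean CPM of the members. It stood at 1696, 1558, 1755, 1578 and 1730 CPM in the WT tumors and at 1770, 1526, 2082, 1943 and 1805 CPM in D69A tumors. Its log2 fold change was 0.13 with an SE of 0.08 (edgeR, adjusted p = 0.212).

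Within each tumor the counts of these genes can be set against each other, which removes the library scaling. The Rplp1 to Rplp0 count ratio was 0.497, 0.499, 0.510, 0.513 and 0.451 in WT-2 to WT-6 and 0.397, 0.416, 0.377, 0.367 and 0.414 in D69A-1 to D69A-5. Every D69A tumor lay below every WT tumor. The difference of the mean log2 ratio was -0.33 (two-sided exact permutation test over the 252 splits of the tumors, p = 0.00794, the smallest this design allows, and 0.0317 adjusted over 8 ratios). The Rplp2 to Rplp0 ratio was 0.264, 0.211, 0.209, 0.217 and 0.198 in WT and 0.195, 0.180, 0.173, 0.178 and 0.196 in D69A tumors. Again the groups did not overlap, though WT-6 and D69A-5 were close, and the log2 difference was -0.25 (exact permutation test, p = 0.00794, adjusted 0.0317). The 8 ratios were chosen after the gene values had been seen, so these tests are not independent of the choice. A ratio shows unequal change and does not tell which of its genes changed. Rplp1 and Rplp2 have short coding sequences (342 and 345 bp) and Rplp0 a long one (951 bp). Short and long members also differed across the whole set, as given below, so stalk and length are not separated here. The groups do not overlap for 29.4% of all genes tested, taken as single genes.

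**Figure D2:**
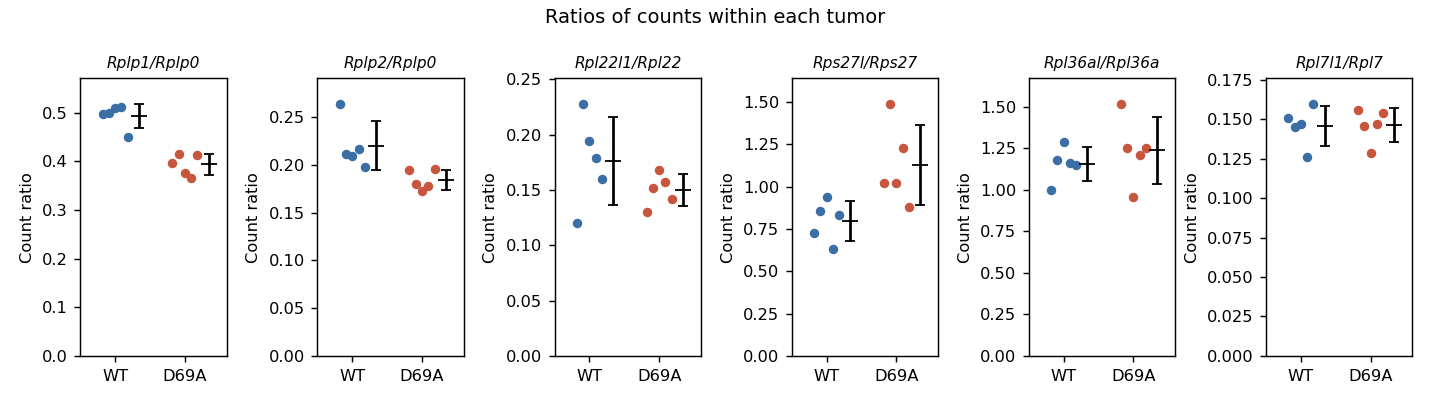
Each point is the ratio of 2 genes' counts (vertical axis, starting at 0) in 1 tumor, with the mean ± SD of each group of 5 beside it. The Rplp1/Rplp0 and Rplp2/Rplp0 ratios of the D69A tumors all lie below those of the WT tumors, while the Rpl22l1/Rpl22, Rpl36al/Rpl36a and Rpl7l1/Rpl7 ratios overlap.

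Rpl8 (chromosome 15, 76904078 to 76906314) encodes L8, a protein of the large subunit close to its catalytic center, and it was the 1 member called higher. It stood at 1073, 995, 1046, 953 and 1077 CPM in the WT tumors and at 1173, 1081, 1276, 1207 and 1143 CPM in D69A tumors. Every D69A tumor was above every WT tumor, though D69A-2 exceeded WT-6 by little. The means were 1029 ± 53.5 and 1176 ± 72.5 CPM (SD, n = 5 each), and the log2 fold change was 0.19 with an SE of 0.06 (edgeR, adjusted p = 0.0245). Without WT-3 the adjusted p was 0.0547.

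Rpl39 (chromosome X, 37082520 to 37085402) encodes L39, one of the shortest proteins of the large subunit, which lines the exit tunnel of the growing peptide. Its levels were 222, 169, 171, 189 and 165 CPM in the WT tumors and 127, 110, 157, 161 and 133 CPM in D69A tumors. WT-2 was the highest and D69A-2 the lowest, and the groups did not overlap. The log2 fold change was -0.41 with an SE of 0.12 (edgeR, adjusted p = 0.0146), and the call held when any 1 tumor was left out. Rpl8 and Rpl39 were the 2 members whose groups did not overlap, against 29.4% of all genes tested.

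Rps29 (chromosome 12, 69157722 to 69159186) encodes S29, a short zinc-binding protein of the small subunit. It stood at 94.0, 66.1, 73.1, 74.3 and 75.5 CPM in the WT tumors and at 57.9, 41.6, 61.2, 66.4 and 66.7 CPM in D69A tumors. The groups touched at WT-3, D69A-4 and D69A-5, and WT-2 and D69A-2 were the extremes. The log2 fold change was -0.38 with an SE of 0.13 (edgeR, adjusted p = 0.0357). The call was lost without WT-2, WT-4, WT-5, WT-6, D69A-1 or D69A-3, each left out alone, at an adjusted p between 0.0555 and 0.0801.

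**Figure D3:**
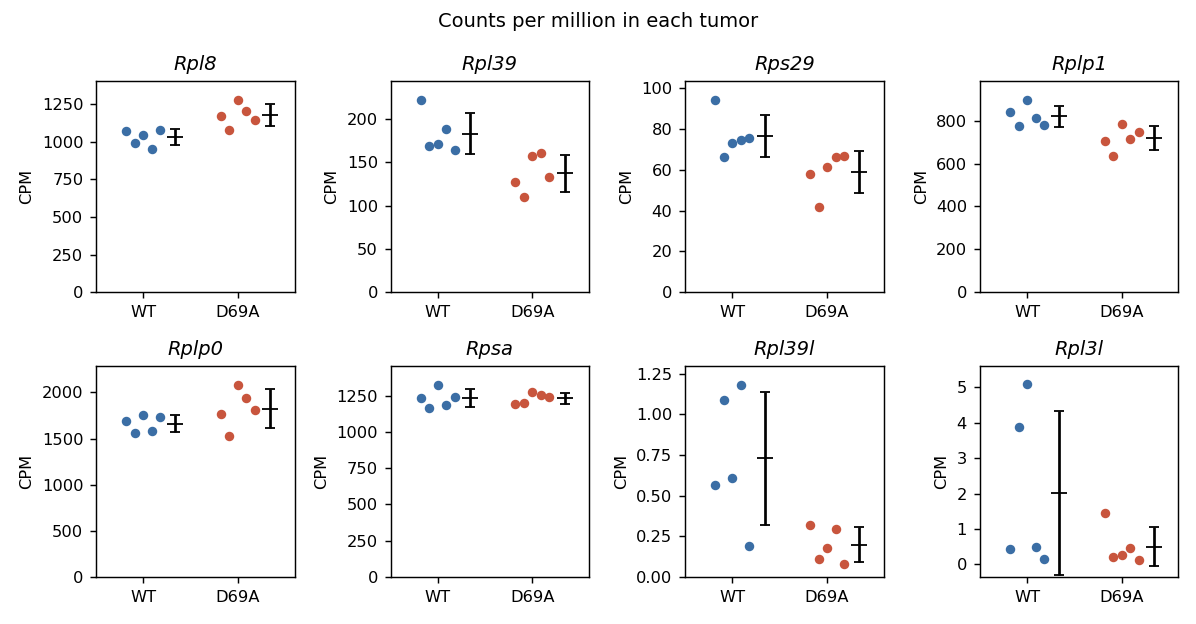
Each point is the level (CPM after TMM scaling) of 1 gene in 1 tumor, with the mean ± SD of each group of 5 beside it. Rpl8 lies higher and Rpl39 lower in all 5 D69A tumors, Rpsa is at 1232 to 1233 CPM on average in both groups, and Rpl39l and Rpl3l are at a few CPM or less.

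Rpl39l and Rpl3l are paralogs known for expression in the testis and in striated muscle, and both had few reads. Rpl39l (chromosome 16, 10170226 to 10174911) had 22, 40, 23, 44 and 5 counts in WT and 12, 4, 6, 10 and 3 counts in D69A tumors. WT-6, the shallowest library, lay among the D69A tumors, and the other WT tumors lay above all of them. The mean levels were 0.728 ± 0.407 and 0.198 ± 0.107 CPM (SD, n = 5 each), and the log2 fold change was -1.87 with an SE of 0.52 (edgeR, adjusted p = 0.0143). The lowest D69A count equals 3, the floor taken for a library. Rpl39l shares no stretch of 50 bases with another annotated gene, Rpl39 included.

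Rpl3l (chromosome 17, 24727820 to 24736143) had 17, 142, 192, 18 and 4 counts in WT and 54, 7, 9, 16 and 4 counts in D69A tumors. Its highest counts, in WT-4, WT-3 and D69A-1, fell in the 3 tumors with the highest muscle marker sums, in the same order. The log2 fold change was -2.01 with an SE of 0.97 and did not pass (edgeR, adjusted p = 0.116). The value moved with those tumors. It was -2.92 without D69A-1 (edgeR, adjusted p = 0.0380), -1.31 without WT-4 (adjusted p = 0.303) and -0.48 without all 3 (adjusted p = 0.574). Rpl10l, a testis paralog of Rpl10, had at most 10 counts in a tumor and was not tested.

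Of 6 paralog ratios, also chosen after the gene values had been seen, that of Rps27l to Rps27 was under 0.05 after adjustment. Rps27l is a p53-induced paralog of Rps27, and its count ratio to Rps27, not corrected for length, was 1.02, 1.49, 1.02, 1.23 and 0.880 in D69A tumors. In WT tumors it was 0.726, 0.858, 0.936, 0.632 and 0.832, so the groups overlap at D69A-5 and WT-4. The log2 difference was 0.49 (exact permutation test, p = 0.0159, adjusted 0.0423 over 8 ratios). Neither gene passed alone: Rps27 had a log2 fold change of -0.32 (adjusted p = 0.140) and Rps27l one of 0.15 (edgeR, adjusted p = 0.351). Rps27 shares 98.6% of its 50-base stretches with Rps27rt, and their summed level was 141 ± 26.7 CPM (WT) and 119 ± 19.4 CPM (D69A; SD, n = 5 per group).

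The differences of log2 ratio were -0.21 for Rpl22l1 to Rpl22 (exact permutation p = 0.246), 0.09 for Rpl36al to Rpl36a (exact permutation p = 0.437) and 0.01 for Rpl7l1 to Rpl7 (exact permutation p = 0.889). For Rpl39l to Rpl39 it was -1.40 (exact permutation p = 0.0397, adjusted 0.0794) and for Rpl3l to Rpl3 it was -1.65 (exact permutation p = 0.214). These missed the threshold after adjustment, which does not show that the ratios were equal.

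Several members are known for roles beyond the ribosome, and none of those named here passed. Rpl5 and Rpl11, which bind Mdm2 when ribosome assembly is disturbed, had log2 fold changes of 0.08 (SE 0.07) and -0.01 (SE 0.06). Rpl13a, part of an interferon-gamma-activated translational inhibitor complex in human cells, stood at 1069 ± 85.3 CPM (WT) and 1086 ± 126 CPM (D69A; SD, n = 5 per group). Rps3, which also binds NF-kB, had a log2 fold change of 0.03 (SE 0.10). Rps6, the substrate of the S6 kinases, stood at 869 ± 29.8 and 855 ± 84.0 CPM, and Rps19, mutated in Diamond-Blackfan anemia, at 477 ± 23.6 and 472 ± 53.6 CPM.

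Rpsa, the laminin receptor precursor of the small subunit, differed least among these. It stood at 1238, 1168, 1325, 1189 and 1244 CPM in the WT tumors and at 1191, 1198, 1278, 1255 and 1239 CPM in D69A tumors. Its 95% interval of the log2 fold change ran from -0.12 to 0.11. Rps27a, made as a fusion with ubiquitin, and Rpl38, needed for translation of some Hox messages, had log2 fold changes of -0.05 (SE 0.15) and -0.29 (SE 0.16), and did not pass. Rpl3, which helps shape the catalytic center, stood at 1095 ± 40.0 CPM (WT) and 1239 ± 112 CPM (D69A; SD, n = 5 per group) and missed the threshold narrowly (log2 fold change 0.18, SE 0.07, edgeR adjusted p = 0.0532). Rps4x and Rpl10, both encoded on the X chromosome, had log2 fold changes of 0.15 (SE 0.08) and 0.21 (SE 0.10).

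Levels of different genes are compared per length, as CPM divided by the summed exon length and rescaled to a common total over the tested genes. On this scale Rplp1 was the highest of the 85 tested members, at 5490 in WT and 4802 in D69A tumors, and Rplp0 followed at 3347 and 3676. Among small subunit symbols Rps3a1 was the highest (3261 in WT, 3469 in D69A). Rps19bp1, which is not a ribosomal protein, was the lowest (95.3 in WT, 94.7 in D69A), and Rps28 was the next lowest (189 in WT, 164 in D69A). Rpl39l was the lowest of the large subunit genes tested, at 2.91 in WT and 0.802 in D69A tumors. This order depends on the length used. With the longest transcript in place of the exon sum, Rplp1 came to 4161 in WT and 3623 in D69A tumors. Rps2, a small subunit gene named here for its rank, then came to 3627 and 3960, above Rplp1 in D69A tumors and above Rplp0 (3099 and 3388) and Rps3a1 (2472 and 2617) in both groups.

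Short and long members differed in the direction of their fitted change. The 82 members used here leave out Rps19bp1 and the 3 members with few reads. Among the 27 shortest by coding length (138 to 390 bp) the median log2 fold change was -0.17, with 22 below 0. Among the 28 of middle length (399 to 576 bp) it was -0.06, with 22 below 0, and among the 27 longest (582 to 1257 bp) it was 0.03, with 9 below 0. The median of the longest was -0.02 with library size only and -0.01 with upper quartile scaling, while the gap of 0.19 between longest and shortest was 0.20 and 0.19. The other genes tested in these length ranges had medians of -0.00, -0.01 and -0.03. Across the 82 members Spearman's rho between coding length and log2 fold change was 0.672, and across 13661 other genes it was 0.0919. The members' mean log2 CPM was also related to the log2 fold change (rho 0.497), and length and abundance were not separated. The points share the same 10 libraries and are not independent, so no p is given.

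**Figure D4:**
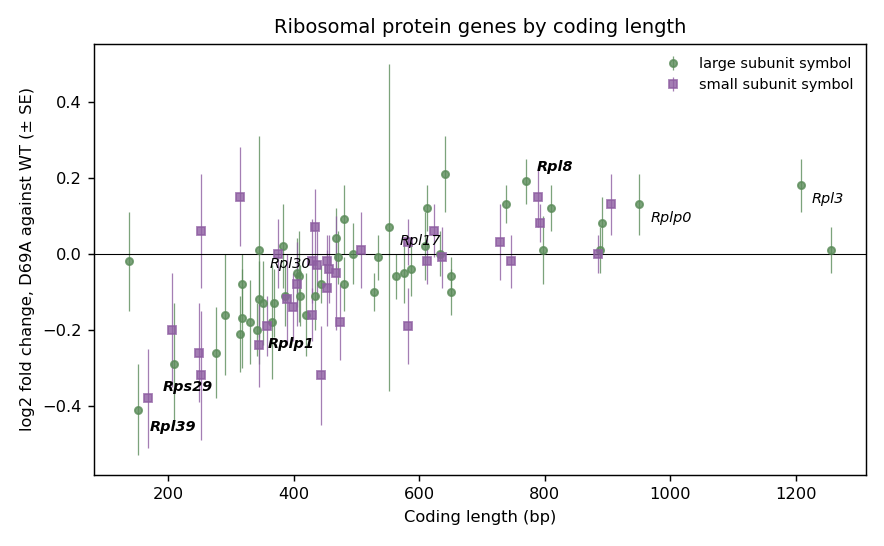
Each point is 1 of 83 ribosomal protein genes, with its coding length (bp) on the horizontal axis and its log2 fold change of D69A against WT ± SE on the vertical axis. Bold names passed the threshold, and 22 of the 27 shortest genes lie below 0 against 9 of the 27 longest when Rps19bp1 is left out.

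The length pattern was widest in 1 tumor of each group. The median deviation of the 27 shortest minus that of the 27 longest was 0.35, -0.03, 0.09, 0.08 and -0.00 (log2) in WT-2 to WT-6. It was -0.02, -0.32, -0.08, -0.01 and -0.04 in D69A-1 to D69A-5. WT-2 thus had high levels of short members and D69A-2 low levels, while the other 8 tumors lay within -0.08 and 0.09. Without WT-2 the gap between longest and shortest was 0.14 and rho 0.512, and without D69A-2 they were 0.15 and 0.591. It was 0.755 among 49 large subunit genes and 0.550 among 33 small subunit genes. WT-2 had 37499278 counts and D69A-2 36362874, and the lowest total, 25904345, belonged to WT-6. Rpl39, Rps29 and Rps27 show the same 2 tumors as their extremes.

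The members also moved up and down together from tumor to tumor. D69A-2 had the lowest CPM of 53 of the 82 members, D69A-3 had the highest of 36 and WT-2 the highest of 25. Within groups, the median correlation of log2 deviations between pairs of members was 0.587. It was 0.483 among mitochondrial ribosomal protein genes, 0.720 among ribosome assembly factors and 0.316 among other TOP messages, over the same 10 tumors. Translation initiation factors had 0.149, RNA polymerase I genes 0.187 and regulators of ribosome synthesis -0.0757. The value over all genes tested was not computed. The median spread within groups (pooled SD of log2 CPM) was 0.15 for members, 0.16 for all genes tested without a 0 and 0.12 for the 2345 genes with a mean of at least 100 CPM.

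**Figure D5:**
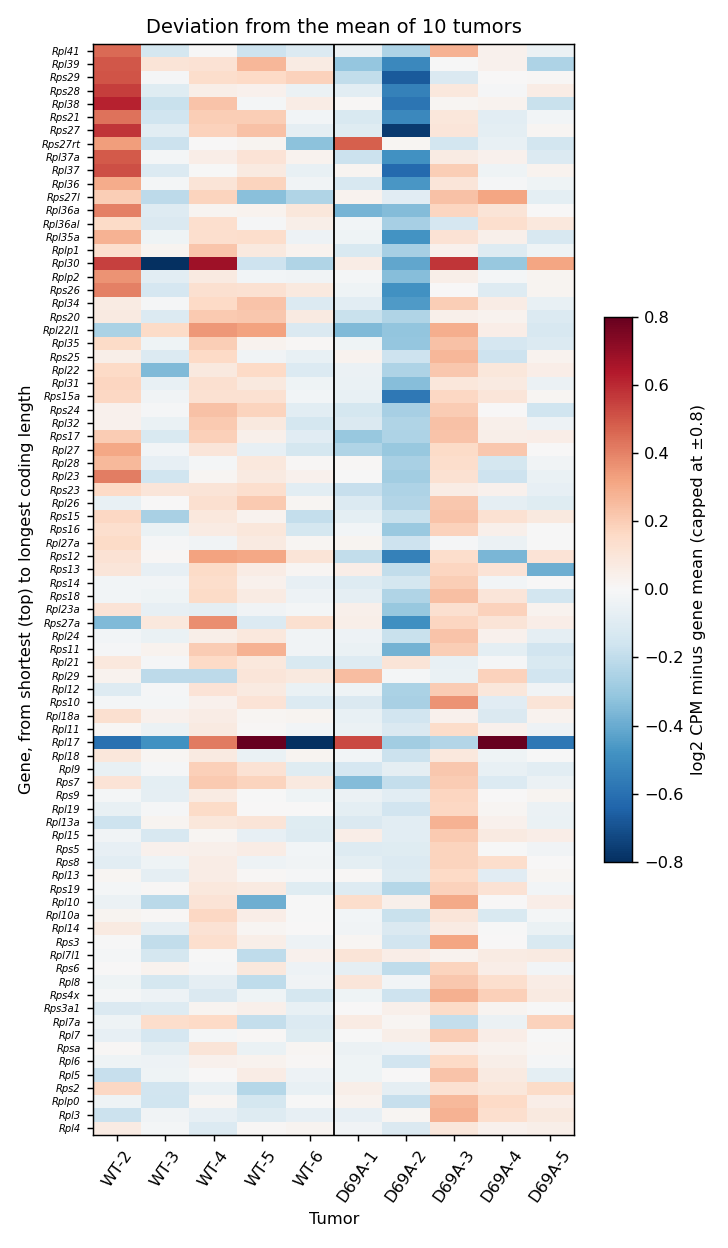
Colors give log2 CPM minus the gene's mean over the 10 tumors, capped at ±0.8, for 82 ribosomal protein genes in rows from the shortest to the longest coding length and tumors in columns. WT-2 is high and D69A-2 low in the upper, shorter genes, D69A-3 is high in many but not all genes, and Rpl17 and Rpl30 vary apart from the rest.

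Among the same 82 members, Rpl17 and Rpl30 varied most between tumors and are named here for that spread. Rpl17 (chromosome 18, 74998558 to 75003381) stood at 108, 117, 218, 375 and 83.0 CPM in the WT tumors and at 236, 135, 139, 327 and 110 CPM in D69A tumors. Rpl30 (chromosome 15, 34440505 to 34443640) stood at 290, 95.9, 317, 177 and 168 CPM in the WT tumors and at 207, 149, 295, 161 and 247 CPM in D69A tumors. Their pooled SDs of log2 CPM were 0.78 and 0.57, with the next widest, Rps27, at 0.31. The log2 fold changes were 0.07 (SE 0.43) and 0.01 (SE 0.30). Their 95% intervals ran from -0.88 to 1.02 and from -0.65 to 0.68, so changes inside these ranges are not excluded at this spread. Rpl17 was highest in WT-5 and D69A-4 and Rpl30 in WT-4 and D69A-3. Rpl17 shares 78.7% of its 50-base stretches with other annotated genes, 51 in all. Of the exon sequence of Rpl30, 20.4% lies opposite exons of another gene, so the division of both genes' reads is uncertain. The member sharing with the most genes, Rpl7a (120), had a pooled SD of 0.15. Rpl35, with the largest part opposite other exons (66.2%), had one of 0.16. Whether shared sequence or overlap bears on the spread was not tested.

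Shared sequence limits every single-gene value here. Of the 86 members, 82 share at least 1 stretch of 50 bases with another annotated gene, and 47 share 50% or more of their stretches. The median over all 86 was 53.4%. Ribosomal protein genes are known for their many processed pseudogenes. As 99.4% of the rows are protein-coding genes, the table shows few of these, and reads that match a copy can have been given to the member, divided or lost. For 12 members a gene sharing at least 20% of stretches has a row of its own. Rpl10 is the clearest case, since Rpl10-ps3 shares 92.1% of its stretches and was called higher (log2 fold change 0.29, edgeR adjusted p = 0.0472). Summed with it, Rpl10 stood at 881 ± 116 CPM (WT) and 1025 ± 85.0 CPM (D69A; SD, n = 5 per group). Among the 5 called members the shared part was 7.9% for Rpl8, 16.2% for Rpl39, 35.8% for Rps29, 60.0% for Rplp1 and 0 for Rpl39l.

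Members with and without the pyrimidine run are set side by side here, with no test. The median log2 fold change was -0.11 for the 14 tested members with the run at an annotated start and -0.03 for the 51 without it. Several of the 14 are short genes, among them Rpl38, Rplp2, Rps21 and Rps27, so run and length are not separated here.

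Fau and Rack1 encode ribosomal proteins that the naming rule leaves out. Fau, whose precursor gives the small subunit protein S30, stood at 491, 524, 517, 628 and 497 CPM in the WT tumors and at 400, 377, 513, 447 and 438 CPM in D69A tumors. It was lower in D69A tumors, with a log2 fold change of -0.29 and an SE of 0.09 (edgeR, adjusted p = 0.0277). Rack1, a scaffold on the small subunit, had a log2 fold change of 0.19 and did not pass (edgeR, adjusted p = 0.0658).

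In 5 other lists of the translation machinery, between 6.38 and 21.9% of the genes tested were called, beside the background of 43.5%. Of 19 other TOP messages 3 were higher, among them Eif4b (0.31) and Pabpc1 (0.19), and 1 was lower, Vim (log2 fold change -0.35), which encodes the vimentin of mesenchymal cells. Of 32 translation initiation factors 5 were higher and 2 lower, with Eif4a2 at -0.66 and Eif2b5 at 0.21 on the log2 scale. Of 78 mitochondrial ribosomal protein genes 3 were higher and 4 lower, with a median of 0.060. Of 47 ribosome assembly factors 3 were higher, Utp20 (0.50), Mdn1 (0.42) and Brix1 (0.23), and 0 lower by the same test. Of 15 RNA polymerase I genes 1 was higher (Rrn3, 0.15) and 1 lower (Taf1d, -0.63).

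Among regulators of ribosome synthesis 8 of 22 genes tested were higher and 3 lower. Rptor, the mTOR partner raptor, stood at 79.3 ± 5.52 CPM (WT) and 102 ± 1.52 CPM (D69A; SD, n = 5 per group), with a log2 fold change of 0.36 (edgeR, adjusted p = 8.22e-04). Larp4, which binds poly(A) tails, was higher by 0.48, and Maf1, a repressor of RNA polymerase III, by 0.24 on the log2 scale. Rps6kb2, an S6 kinase, ranged from 23.7 to 31.8 CPM among WT and from 13.7 to 17.9 CPM among D69A tumors, a log2 fold change of -0.79 (edgeR, adjusted p = 6.31e-04). Of its exon sequence 23.7% lies opposite exons of Ptprcap and Coro1b, and no source used here says whether counting used strand, so its reads and theirs cannot be told apart. A share of 11 in 22 is near the background of 43.5%.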

How the data were processed

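The authors deposited whole-number gene counts for 10 tumors, unscaled. Fastp, HISAT, Bowtie, RSEM and the build mm10 were used, per the submitters' processing notes, which name no role, version, annotation or strand setting. The counts may be rounded estimates that divide reads between near-identical genes. Totals ran from 25904345 to 37578722, so that 3 counts, taken as a floor, were 0.0775 to 0.115 CPM (counting error only). No 2 libraries of a group agreed within sampling noise.

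Symbols, coordinates and lengths came from GENCODE M21 (17670 rows matched, 67 not). Groups were compared with edgeR 4.0.16 in R 4.3.3 (filterByExpr, TMM, quasi-likelihood test), and alternatives with DESeq2 1.42.0, limma 3.58.1, other scalings, filters and samples. In simulated counts of 13689 genes 4% of 1.2-fold, 58% of 1.5-fold and 72% of 2-fold changes were recovered. These rates are not given by expression level, and recovery among the members alone was not tested. In the tumors Rpl8 was called at a fitted 1.14-fold change. The members and lists were chosen with earlier results of these data known. Genes were named by role, paralogy, smallest p and highest or lowest level. Rpl7a, Rpl15, Rpl17, Rpl30, Rpl35, Rps2, Rps12, Rps21 and Rps28 lie outside that rule and were named after their values were seen. Paralog proteins were not compared here.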

Additional observations from a re-analysis of the deposited data

Results flagged for a closer look

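Single tumors stood apart from the other 4 of their group, by Dixon's rule at 95%, in 7 of 66 groups of values examined (10.6%), and chance alone gives about 1 in 20. D69A-2 accounts for 4 of them. Its Rplp2 level was 275 CPM against 345 to 360 in the other D69A tumors, Rps27 was 61.1 against 97.2 to 111 CPM, and Rps27a was 309 against 450 to 490 CPM. The difference between its shortest and longest members was -0.32 (log2), against -0.08 to -0.01. D69A-3 had 1157 CPM of Rpl7, a large subunit protein, against 1002 to 1039. D69A-1 had 1.44 CPM of Rpl3l against 0.109 to 0.473, and it was the D69A tumor with the highest muscle marker sum. D69A-4 had 0.296 CPM of Rpl10l, from 10 counts, and the other D69A tumors had 0.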

How the results depend on the processing

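The count of members higher in D69A tumors, 1 as reported, was 2 with DESeq2, with RLE scaling, with TMM factors computed without the members and with no low count filter. It was 0 with library size only (edgeR, 17 members at an unadjusted p under 0.05) and with upper quartile scaling (15), and 0 at an adjusted p of 0.01. Leaving out 1 tumor at a time gave 0 to 3. The count of members lower, 4 as reported, was 9 with library size only, 0 at an adjusted p of 0.01, and 2 to 4 with 1 tumor left out. Without the 3 tumors highest in muscle markers, an alternative chosen after seeing the data, it was 0. Over all genes, 3651 were called and 1334 were higher at an adjusted p of 0.01, and 1727 were higher without those 3 tumors. The median of all genes stayed within 0.1 of 0 under each setting. The members' median lay below that of all genes except with DESeq2, no low count filter and without D69A-2. The highest level per length, 5490, was 4161 with the longest transcript, and the share of members with a pyrimidine run at the start, 21.2%, was 60.6% with a start within 10 bases.

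WT and D69A tumors numbered 2 to 5 share only a number. Their deviations correlated at 0.177, -0.417, 0.203 and 0.167, and 1 of 4 WT tumors correlated best with its own number. With the replicate block 1 member was higher (Rpl3) and 2 lower (Rpl39l and Rpl3l, the latter at an adjusted p of 0.00808). Rpl8, Rpl39, Rplp1 and Rps29 were then not called by edgeR, at adjusted p of 0.0793, 0.0855, 0.139 and 0.161. On the same 8 tumors with no block, chosen after seeing the data, 2 were higher and 3 lower.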
